A study of Mus musculus with 42 samples.

Results

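The regions described here are 1541 stretches of mouse chromatin that carried acetylated lysine 27 of histone H3 (H3K27ac) in wild-type macrophages after 1 h with lipopolysaccharide (LPS), and in which none was listed before it or after 18 h. They were found by merging, wherever they overlapped, the H3K27ac regions that the authors had called in each of the 9 wild-type libraries. This gave 58639 merged regions, and a region was kept when all 3 libraries of 1 h had a region in it and none of the 6 libraries of 0 h and 18 h did. The regions found only at 1 h were 2.63% of the merged regions. For comparison, 719 regions were found in all libraries of 1 h and 18 h and in none of 0 h, and 1280 were found in all libraries of 18 h only. The regions were thus chosen by the wild-type H3K27ac values, which are given as a description and without a test.

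The study compared macrophages of wild-type mice (WT) with those of mice that lack Nur77 (KO), the nuclear receptor encoded by Nr4a1. Macrophages were grown from the bone marrow of male C57Bl6/J mice of 6 to 12 weeks in medium conditioned by L929 cells, and were left untreated (0 h) or given 100 ng/ml LPS for 1 h or 18 h. Chromatin immunoprecipitation with sequencing (ChIP-seq) was done for H3K27ac and for RNA polymerase II (Pol II), with 3 libraries for each genotype, time and antibody and 1 input library for each genotype and time. The KO is a deletion in the whole body, made with loxP sites around Nr4a1 and a Cre recombinase driven by a cytomegalovirus promoter. The genotype label of the KO libraries names only Cre, whereas the study describes KO mice without it, and whether Cre plays a part in any difference by genotype was not tested. The catalogue numbers given for the Pol II antibody differ between the labels and the study. Nothing in the labels says that replicates came from separate mice. The study speaks of biological replicates in its ChIP-seq methods, without saying whether these were separate mice. The p-values therefore measure the spread between these libraries, which may be technical.

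LPS, a component of the outer membrane of Gram-negative bacteria, is sensed by Toll-like receptor 4. Signalling from this receptor brings the transcription factors NF-kB and AP-1 to enhancers and promoters, where acetyltransferases mark the surrounding nucleosomes with H3K27ac and Pol II starts to transcribe the early genes of inflammation. Many of these early genes are switched off again by feedback regulators, while genes that respond to interferon take over later. H3K27ac is read as a mark of active promoters and enhancers, and some enhancers gain it within the first hour of the response.

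The central 300 bases of 8 regions are shown, because they hold a match to the sequences that AP-1 or NF-kB recognize. Sequences were read from the mouse genome build GRCm38 (mm10) on its plus strand, and the capitals mark the match. The first 3 lie in introns of Fchsd2, Pik3cd and Itm2b, at chr7:101135622-101135921, chr4:149683670-149683969 and chr14:73368969-73369268. They hold an AP-1 match and are among the regions in which Pol II changed most, upwards at Fchsd2 and downwards at Pik3cd and Itm2b.
Fchsd2: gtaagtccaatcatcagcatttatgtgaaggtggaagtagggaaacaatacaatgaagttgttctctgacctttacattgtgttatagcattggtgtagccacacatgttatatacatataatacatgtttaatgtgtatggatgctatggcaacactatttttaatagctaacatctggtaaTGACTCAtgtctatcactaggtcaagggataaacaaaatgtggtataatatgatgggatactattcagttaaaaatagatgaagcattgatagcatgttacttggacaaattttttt
Pik3cd: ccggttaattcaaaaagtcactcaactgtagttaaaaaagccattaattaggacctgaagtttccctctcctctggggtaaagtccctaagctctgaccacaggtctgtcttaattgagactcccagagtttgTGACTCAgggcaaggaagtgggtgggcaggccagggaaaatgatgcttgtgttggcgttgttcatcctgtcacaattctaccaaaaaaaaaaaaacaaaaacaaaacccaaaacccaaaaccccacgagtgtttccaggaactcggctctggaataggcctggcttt
Itm2b: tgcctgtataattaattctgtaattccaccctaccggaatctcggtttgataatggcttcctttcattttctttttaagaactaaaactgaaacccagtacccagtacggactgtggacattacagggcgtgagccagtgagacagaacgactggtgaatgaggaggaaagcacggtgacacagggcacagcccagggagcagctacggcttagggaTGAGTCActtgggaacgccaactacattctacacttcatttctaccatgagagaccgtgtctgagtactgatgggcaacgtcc

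The other 5 are the NF-kB matches with the highest H3K27ac at 1 h, which were chosen after the values were seen. They lie in an intron of Nsd2 (chr5:33835041-33835340), between genes nearest to Ifi207 (chr1:173715160-173715459), in an intron of Abcc8 nearest to Kcnj11 (chr7:46130924-46131223), between genes nearest to Tab2 (chr10:7971421-7971720) and at the start of Mfsd6l (chr11:68554219-68554518). Ifi207 belongs to a family of near-identical copies, so reads there may be shared with its relatives. Tab2 encodes an adaptor of the kinase TAK1 on the way from Toll-like receptors to NF-kB.
Nsd2: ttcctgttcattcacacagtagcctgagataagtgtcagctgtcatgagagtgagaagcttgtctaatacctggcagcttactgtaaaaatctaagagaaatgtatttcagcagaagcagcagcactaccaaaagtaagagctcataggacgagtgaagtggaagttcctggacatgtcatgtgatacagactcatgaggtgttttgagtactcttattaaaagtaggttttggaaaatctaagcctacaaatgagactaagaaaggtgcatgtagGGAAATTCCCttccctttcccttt
Ifi207: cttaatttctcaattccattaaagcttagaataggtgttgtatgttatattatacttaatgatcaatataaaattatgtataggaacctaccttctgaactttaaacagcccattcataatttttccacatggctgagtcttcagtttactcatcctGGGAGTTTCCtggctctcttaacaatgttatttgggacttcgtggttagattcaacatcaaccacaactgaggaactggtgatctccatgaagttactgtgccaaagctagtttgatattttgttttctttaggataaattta
Kcnj11: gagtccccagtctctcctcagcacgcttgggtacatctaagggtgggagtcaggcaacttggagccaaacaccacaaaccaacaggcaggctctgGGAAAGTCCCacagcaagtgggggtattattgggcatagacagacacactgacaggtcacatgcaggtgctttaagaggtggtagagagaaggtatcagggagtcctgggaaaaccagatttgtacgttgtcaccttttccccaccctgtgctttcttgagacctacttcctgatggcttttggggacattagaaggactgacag
Tab2: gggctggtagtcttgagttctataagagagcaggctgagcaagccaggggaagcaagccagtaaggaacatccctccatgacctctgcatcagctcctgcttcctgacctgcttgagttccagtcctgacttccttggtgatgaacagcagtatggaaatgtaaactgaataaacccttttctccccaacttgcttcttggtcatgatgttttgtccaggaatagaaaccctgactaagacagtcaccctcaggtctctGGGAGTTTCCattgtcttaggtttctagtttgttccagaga
Mfsd6l: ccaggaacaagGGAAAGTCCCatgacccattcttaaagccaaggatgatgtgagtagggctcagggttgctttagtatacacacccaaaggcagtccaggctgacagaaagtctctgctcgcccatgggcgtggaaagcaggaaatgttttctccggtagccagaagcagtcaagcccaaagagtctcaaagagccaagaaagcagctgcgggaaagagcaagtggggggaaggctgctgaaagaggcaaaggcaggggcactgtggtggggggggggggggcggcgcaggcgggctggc

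Values are normalized tags, the reads of a region scaled to 10 M tags per library. A value of 0 means that no region was listed there, not that no tag was seen. The WT libraries of 1 h had 13.5 M, 14.0 M and 20.9 M tags, against 21.4 M to 23.1 M at 0 h and 15.0 M to 31.1 M at 18 h. Each library has a tag threshold for a window of 500 bp. In normalized tags it was 6.71 to 8.14 at 1 h, 6.05 to 6.55 at 0 h and 5.46 to 7.98 at 18 h in WT. Some regions were listed slightly below it, such as 1 with 6.23 tags in WT replicate 3 of 1 h, so it is no strict minimum. The thresholds of 0 h lay below those of 1 h, whereas those of 18 h overlapped them. A member near the threshold could thus have gone unlisted at 18 h at the same level. KO replicate 1 of 1 h stood apart from the other two: across regions found in all libraries its correlation with replicates 2 and 3 was 0.911 and 0.916, against 0.993 between these. KO replicate 1 of 18 h stood apart too, at 0.920 and 0.920 against 0.994. All 7 macrophage markers examined carried Pol II, with medians over libraries from 526 tags at Cd68 to 17640 at Adgre1, and of 10 genes of other blood cells and fibroblasts only Cd3d did, with 23.1 to 97.0 tags. H3K27ac was listed near Elane, at 3.35 to 45.6 tags. Pol II over Nr4a1 itself was 188 to 208 tags in WT and 70.2 to 87.8 in KO at 0 h, and 23.0 to 30.4 and 33.5 to 39.0 at 1 h. The sources used here do not give which part of Nr4a1 was deleted, so Pol II over the whole gene does not check the genotype.

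The regions found only at 1 h lay mostly away from gene starts. A gene start lay within 1000 bp of 82 regions (5.32%), against 17.4% of all merged regions. Introns held 745 regions (48.3%), against 44.8% of all, and 675 (43.8%) were intergenic, against 34.5%. Regions away from gene starts were placed by their centre, and the remaining 39 had it in an exon. The median distance from the centre of a region to the nearest start of a protein-coding gene was 33689 bp, longer than the 22237 bp over all merged regions, the 30845 bp of the regions that lasted to 18 h and the 25574 bp of the regions found only at 18 h. A distance over 100 kb was seen for 335 regions (21.7%), against 15.2% of all merged regions. Their median length was 1658 bp, with a range from 520 bp to 8447 bp.

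**Figure D1:**
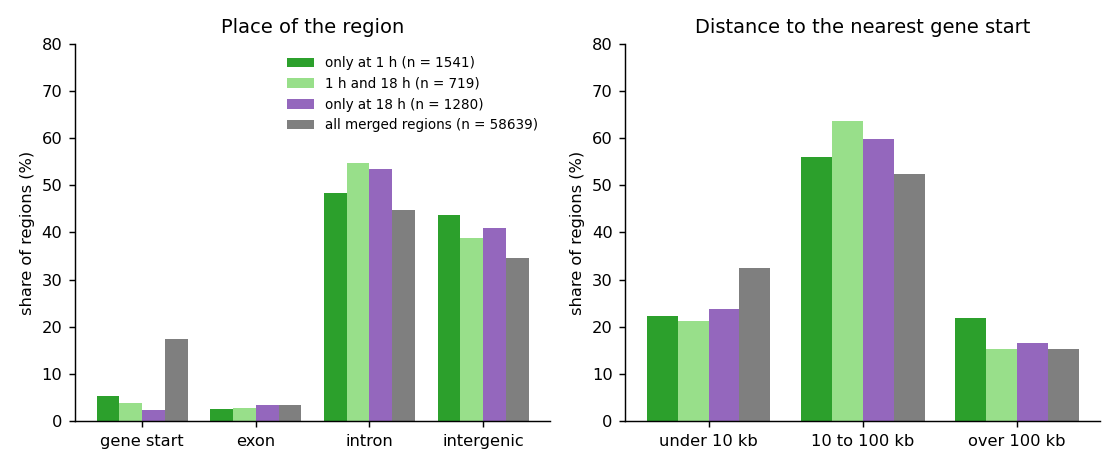
Share of regions (%) by place (left) and by distance from the centre of the region to the nearest gene start (right), for regions found only at 1 h, at 1 h and 18 h, only at 18 h, and for all merged WT H3K27ac regions. Gene starts held 5.32% of the regions found only at 1 h and 17.4% of all merged regions.

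The regions were nearest to 1188 genes. A single region fell to 963 genes, 2 to 4 regions fell to 210 and at least 5 fell to 15. The largest groups were 8 regions nearest to Inhba, the subunit of activin A, and 8 nearest to Zeb1, a repressor of transcription. Zeb2, its relative, Etv6, a transcription factor of the ETS family, Adgrl2, an adhesion receptor, and 4930558K02Rik had 7 regions each. Cited2, Ext1, Pou1f1 and Prdm1 had 6 each, and Akap2, BC067074, Csf2, Fgf1 and St3gal1 had 5. The share of merged regions that were found only at 1 h ranged from 1.72% on chromosome 8 to 3.83% on chromosome 18 among the autosomes and the X chromosome, and was 0 of 27 on the Y chromosome.

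H3K27ac at 1 h in WT was 31.8 normalized tags per region on average, with a median of 21.4 and a range of means over the 3 libraries from 7.32 to 355. The members with the least acetylation lay near the threshold for a window, with some values below it. The region nearest to Smim15 had 7.40, 7.84 and 6.71 tags, and that nearest to Fbxo11 had 9.63, 7.13 and 6.23. In all, 1693 regions missed the rule by 1 library. The highest of these, at the start of Il34, a ligand of the CSF1 receptor, had 408, 422 and 437 tags at 1 h and was left out for 6.63 tags in replicate 2 of 18 h. The next, in an intron of Clip1, had 286, 246 and 256 tags at 1 h and 8.13 tags in that same library.

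The highest member was at the start of Lad1 (chr1:135811403-135819444), which encodes a protein of the basement membrane. Its H3K27ac at 1 h in WT was 310, 407 and 347 tags. In KO it was 271, 27.6 and 46.2 tags at 1 h, 0 in all libraries of 0 h, and 0, 55.3 and 43.7 at 18 h. Every KO library lay below every WT library at 1 h, and KO replicates 2 and 3 still had H3K27ac at 18 h. WT values of 1 h chose these regions as the highest, so lower values in KO follow in part from the choice and are no test of the genotype. Pol II at Lad1 was 60.7, 50.4 and 68.8 tags at 1 h in WT and 72.8, 68.5 and 83.2 in KO, with 0 listed in every library of 0 h and 18 h.

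The second was a region 303 kb from Atp2b1 (chr10:98607479-98615549), the gene of a calcium pump of the plasma membrane. H3K27ac was 284, 288 and 255 tags at 1 h in WT and 260, 131 and 124 in KO, whereas the 6 KO libraries of 0 h and 18 h listed none. Pol II there was 160, 148 and 174 tags at 1 h in WT and 207, 224 and 193 in KO, without any listed at the other times. KO replicate 1 was within the WT range of H3K27ac and the other KO libraries were below it, while Pol II was higher in every KO library than in any WT library.

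The region at the start of Cacnb3 (chr15:98624440-98632886), a subunit of voltage-gated calcium channels, had 226, 257 and 238 tags of H3K27ac at 1 h in WT and 206, 101 and 122 in KO. Pol II there was 138, 153 and 165 tags in WT and 195, 202 and 215 in KO at 1 h, with 0 listed at 0 h and 18 h. Within an intron of Brip1 (chr11:86172959-86177099), the gene of a DNA helicase, H3K27ac was 238, 278 and 229 tags in WT and 157, 17.8 and 19.0 in KO. Each KO library was below the WT range in both regions, which again follows in part from the choice.

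The other high members lay between genes or in an intron. Between genes near Art2b (chr7:101596597-101602905), H3K27ac was 227, 256 and 201 tags in WT at 1 h, and 167 tags in KO replicate 1 with 0 listed in KO replicates 2 and 3. Near Mef2d (chr3:88192513-88196862), a transcription factor, it was 217, 208 and 244 in WT and 138, 35.6 and 44.2 in KO. KO replicate 1 was the highest KO library in each, and was below every WT library. Near Rap1b (chr10:117864069-117870411), a small GTPase of cell adhesion, WT had 191, 257 and 212 tags and KO had 161, 48.8 and 57.7. In Cab39l, in an intron near Cdadc1 (chr14:59535027-59542281), WT had 211, 228 and 215 tags and KO had 175, 74.0 and 83.4. At all of these highest members KO replicate 1 was the KO library nearest to WT.

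The rule did not use the KO libraries, and most of the regions were found there at 1 h too, but less evenly. KO replicates 1, 2 and 3 of 1 h listed 1402 (91.0%), 726 (47.1%) and 941 (61.1%) of the 1541 regions, whereas they listed 67.8%, 62.6% and 69.1% of all merged regions. At 0 h the KO libraries listed 92, 109 and 139 of the regions, and at 18 h 353, 223 and 151. Mean H3K27ac over the regions was 30.7, 33.5 and 31.1 tags in WT and 27.7, 10.5 and 13.8 tags in KO at 1 h, 0.581 to 0.825 in KO at 0 h, and 3.83, 1.90 and 0.970 in KO at 18 h. KO replicate 1 was again the library nearest to WT, and the part of this library in the difference between KO and WT was not tested.

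**Figure D2:**
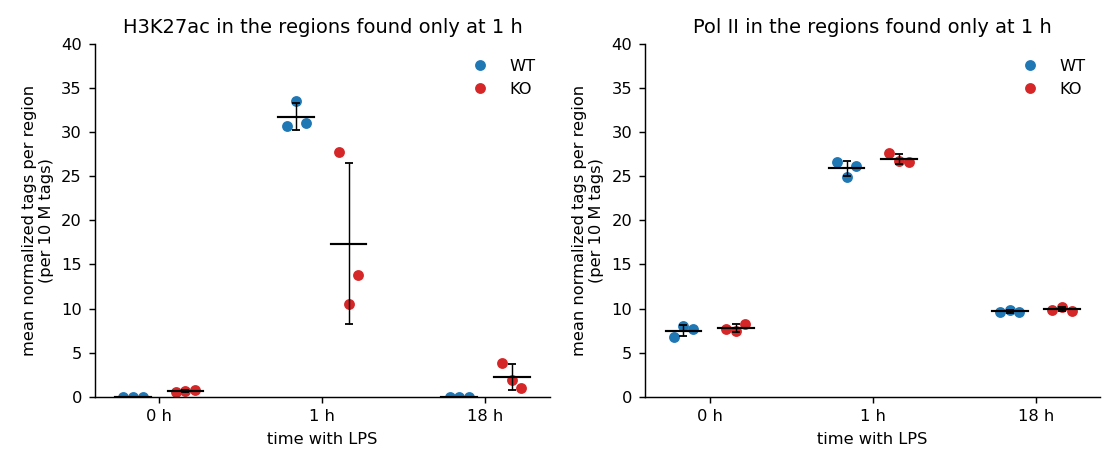
Mean normalized tags per region (per 10 M tags) over the 1541 regions by time with LPS, for H3K27ac (left) and Pol II (right); each point is a library, the line is the mean and the bars are the SD of 3 libraries. WT H3K27ac is 0 at 0 h and 18 h by the choice of the regions, the KO libraries of 1 h spread from 10.5 to 27.7, and Pol II rises at 1 h in both genotypes.

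All 3 KO libraries of 1 h listed 666 regions (43.2%), only KO replicate 1 listed 459 (29.8%), and none listed 101 (6.55%). Presence in KO went with the level in WT. Of the 386 regions with the lowest H3K27ac in WT, 93 (24.1%) were listed in all 3 KO libraries of 1 h, against 270 of the 385 highest (70.1%). The KO libraries listed 1328 regions (86.2%) in no library of 0 h, and 77 regions (5.00%) were listed in no KO library at all.

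The pattern that chose the regions was also found in KO. All 3 KO libraries of 1 h and no KO library of 0 h listed 554 regions (35.95%). This pattern was seen in 2.82% of all merged regions and in 44.65% of those that lasted to 18 h in WT. With none of 18 h as well, 309 of the 1541 regions (20.1%) remained, against a background of 0.929%. The same rule applied to the KO libraries in place of the WT ones gave 546 regions out of 62181 merged KO regions. Of these 546, 285 (52.2%) overlapped a WT region found only at 1 h, and conversely 286 (18.6%) of the 1541 did so. The WT libraries of 1 h listed 404, 434 and 454 of the 546. When at least 2 of the 3 KO libraries of 1 h were enough, the rule gave 1535 regions in KO. Depth also differed, with 35.0 M to 38.8 M tags in KO at 0 h and 31.3 M to 55.4 M at 18 h. In WT these were 21.4 M to 23.1 M and 15.0 M to 31.1 M. The part of depth in the counts of KO and WT was not tested.

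In the KO libraries, limma (moderated linear model on log2 of normalized tags plus 10, Benjamini-Hochberg adjustment over all regions tested, call at adjusted p under 0.05 and a log2 change over 1) tested 985 of the 1541 regions at 1 h against 0 h, those listed in at least 2 of 3 libraries of either time. It called 551 higher and 0 lower, beside a background of 8.93% higher and 14.0% lower over the 45666 regions tested. At an unadjusted p under 0.05, 791 were higher and 3 lower. Since a region absent at 0 h was tested only where it was listed at 1 h, the count describes the regions and does not support a rise over all 1541. Without this filter, 507 of the 1541 regions were called higher, and with 50 tags added in place of 10 only 77 of those tested were. In fits chosen after the data were seen, leaving out KO replicate 1, 2 or 3 of 1 h gave 492, 693 and 552 calls, and leaving out KO replicate 1 of 18 h gave 558. From 1 h to 18 h, 487 of 1008 regions tested in KO were called lower and 0 higher, beside 15.8% and 10.5% of all regions, 26.4% in all, with 721 lower and 7 higher at an unadjusted p under 0.05. The median log2 difference over the regions tested was 1.25 at 1 h against 0 h and -1.10 at 18 h against 1 h, and -0.22 and -0.15 over all regions tested. Most of the regions were listed at 0 at 0 h, so these medians depend on the pseudocount, and were 3.66 and -3.09 with 1 tag and 0.39 and -0.35 with 50 tags added.

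**Figure D3:**
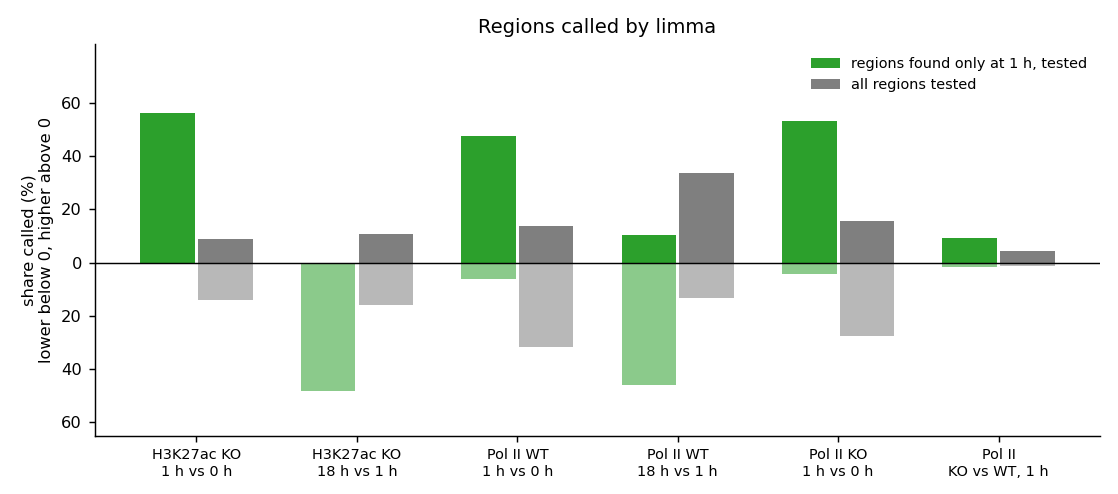
Share (%) of tested regions called by limma at adjusted p under 0.05 and a log2 change over 1, for regions found only at 1 h (green) and all merged regions tested (grey); bars above 0 are calls higher in the first-named group, paler bars below 0 are calls lower. For WT Pol II at 1 h against 0 h, 47.5% of the tested regions found only at 1 h were called higher, beside 13.6% of all regions tested; without the filter on listing, 247 of all 1541 were.

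Of the calls in KO, 38 of the 63 regions tested at gene starts were higher at 1 h, 15 of 21 in exons, 268 of 494 in introns and 230 of 407 between genes. Among regions that lasted to 18 h in WT, 353 of 550 tested were called higher in KO at 1 h, and among regions found only at 18 h in WT, 5 of 214 were, with 1 lower. The difference between these groups was not tested.

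The regions with the largest increase in KO included Atp2b1 and Cacnb3, described above, and 6 others. In an intron of Mthfs (chr9:89245094-89247469), an enzyme of folate metabolism, KO had 231, 160 and 192 tags of H3K27ac at 1 h, and WT had 27, 39.6 and 43.6. All KO libraries of 1 h lay above all WT libraries there, and the 6 KO libraries of 0 h and 18 h were listed at 0. Pol II in the same region was 67.7, 56.2 and 96.1 tags at 0 h and 636, 610 and 553 at 1 h in WT, and 99.9, 103 and 47.9 and then 565, 547 and 535 in KO. Pol II rose in both genotypes, by 2.90 ± 0.36 (SE) on the log2 scale in WT (adjusted p = 2.76e-06) and by 2.64 ± 0.36 in KO (adjusted p = 8.03e-06).

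KO replicate 1 did not stand apart at several of these regions. Near Mrps23, within an intron of Cuedc1 (chr11:88178400-88182703), a protein of the mitochondrial ribosome, KO had 158, 178 and 202 tags at 1 h and WT had 148, 149 and 170. Near Dock10 (chr1:80819821-80825707), an activator of small GTPases, KO had 156, 165 and 156 tags and WT had 237, 230 and 179. The genotypes overlapped near Mrps23, and every KO library lay below every WT library near Dock10. At the start of Tmem200b (chr4:131919997-131925351), KO had 143, 102 and 121 tags and WT had 177, 191 and 212, again without overlap.

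Near Tgfbr1 (chr4:47281784-47285212), a receptor of TGF-beta, the region lay in an intron of Col15a1, where KO had 58.8, 100 and 258 tags and WT had 45.2, 49.6 and 68.3. Near B3gnt2 (chr11:22705079-22711867), an enzyme that extends sugar chains of glycoproteins, KO had 85.3, 114 and 124 tags and WT had 97.0, 94.5 and 110. The genotypes overlapped in both regions. At 0 h these 5 regions were listed at 0 in all KO libraries, so they were tested only because they were listed at 1 h. None of the 985 regions tested was called lower in KO at 1 h, whereas 2 were with 1 tag added and 4 without replicate 1.

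Pol II, which the choice of regions did not use, was listed in more of the regions at 1 h than at the other times, though less often than in merged regions as a whole. The WT libraries listed Pol II in 284 to 303 of the 1541 regions at 0 h, in 456 to 509 at 1 h and in 269 to 303 at 18 h, and the KO libraries in 265 to 305, 567 to 612 and 280 to 298. In WT these were 18.4% to 19.7% of the regions at 0 h and 29.6% to 33.0% at 1 h, against 54.7% to 56.9% and 41.4% to 43.4% of all merged regions. The mean over the regions was 6.80 to 7.999 tags at 0 h, 24.9 to 26.6 at 1 h and 9.59 to 9.88 at 18 h in WT, and 7.43 to 8.25, 26.6 to 27.7 and 9.75 to 10.2 in KO. The 3 libraries of 1 h lay above those of both other times in each genotype. A region of Pol II can run through a whole gene, so a member inside a gene also holds polymerase that passes along that gene. In bulk samples, fewer cells with Pol II in a region and less Pol II per cell cannot be told apart.

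Pol II was listed in all 3 WT libraries of 1 h and in none of 0 h at 140 regions (9.09%), beside 2.17% of all merged regions. Among regions that lasted to 18 h the share was 11.96%. With none of 18 h as well, the count was 122 (7.92%), beside 1.25%, and the share was 4.73% among regions that lasted to 18 h and 0.625% among those found only at 18 h. At gene starts 17 of 82 regions (20.7%) had this pattern. In KO the counts were 214 (13.9%) and 178 (11.6%), beside 3.01% and 1.64% of all merged regions. Among regions that lasted to 18 h the KO shares were 15.2% and 4.45%. In both genotypes at once, 100 regions (6.49%) had Pol II only at 1 h, beside 0.815%. No library of either genotype listed Pol II in 731 regions (47.4%), beside 26.2% of all merged regions, and this share was 66.5% (449 of 675) between genes.

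By limma, 526 of the 1541 regions were tested for Pol II in WT at 1 h against 0 h, of which 250 were higher and 32 lower, beside 13.6% and 31.7% of all regions tested. The median log2 difference was 0.96 over the regions tested and -0.51 over all regions tested, where it was -0.18 after centring and -0.04 by quantile normalization. With these scalings 316 regions were higher and 23 lower, and 330 and 19. The median over the regions was 2.26 with 1 tag and 0.32 with 50 tags added. Many of the regions tested passed the filter only through the libraries of 1 h, so these counts describe the regions and do not support a rise over all of them. Without the filter, 247 were higher and 30 lower of all 1541, and among those tested the counts were 315 and 48 with 1 tag and 95 and 5 with 50 tags added. From 1 h to 18 h, 240 of 522 were lower and 53 higher, beside 13.5% and 33.6% of all regions. When each library was centred on regions found in all libraries, 336 were lower and 27 higher, and by quantile normalization 319 and 29. In KO, 325 of 611 were higher at 1 h and 27 lower, beside 15.4% and 27.7% of all, together 43.1%. Of the 493 regions tested in both genotypes, 231 (46.9%) were higher in both and 22 (4.46%) lower in both, beside 12.5% and 25.5% of the 33478 regions tested in both. Opposite calls were made at 0 of the 493 and at 6 of all. The genotypes share no library in this comparison, but they share the estimate of the spread.

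By place, Pol II was higher at 1 h in WT in 19 of 36 tested regions at gene starts, with 1 lower, in 5 of 22 in exons, with 2 lower, in 181 of 364 in introns, with 22 lower, and in 45 of 104 between genes, with 7 lower. In regions that lasted to 18 h, 150 of 344 tested were higher and 31 lower, and in those found only at 18 h, 70 of 355 were higher and 72 lower.

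One of the largest increases of Pol II lay in a region that overlaps the edge of Sdc4 (chr2:164420755-164424623), a heparan sulphate proteoglycan of the cell surface, with Matn4 as the gene of the nearest start. In WT, Pol II went from 268, 305 and 301 tags at 0 h to 6904, 7080 and 7457 at 1 h, then back to 137, 145 and 135 at 18 h. KO had 182, 184 and 195, then 6531, 5565 and 5904, then 138, 133 and 127. The libraries of 1 h stood far above all others, and the rise was 4.57 ± 0.065 (SE) on the log2 scale in WT (limma, adjusted p = 6.90e-17) and 4.93 ± 0.065 in KO (adjusted p = 3.60e-17). H3K27ac in the same region was modest, with 15.9, 41.0 and 50.1 tags in WT and 55.6, 6.37 and 0 in KO at 1 h.

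At Itgav (chr2:83758136-83762847), the integrin subunit alpha V, the region was intronic and WT had 32.6, 32.1 and 41.8 tags of Pol II at 0 h, 749, 721 and 727 at 1 h and 4.98 to 5.82 at 18 h. The rise at 1 h was 4.04 ± 0.25 on the log2 scale in WT and 4.49 ± 0.25 in KO (limma, adjusted p = 1.03e-09 and 3.02e-10). H3K27ac was 122, 115 and 128 tags in WT and 62.1, 99.1 and 103 in KO, so the KO libraries lay below WT. In the intron of Fchsd2 whose sequence is shown above (region chr7:101134075-101137468), a gene of membrane and actin remodelling, WT had 5.67, 23.5 and 5.37 tags of Pol II at 0 h and 340, 320 and 329 at 1 h, with at most 6.83 at 18 h. Pol II at Fchsd2 rose by 4.08 ± 0.36 in WT and 3.86 ± 0.36 in KO (limma, adjusted p = 5.33e-08 and 1.08e-07), whereas within 500 bp of the start of Fchsd2 the difference in WT was -1.34.

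At 3 other regions Pol II was listed at 0 in all WT libraries of 0 h. The intronic region of Rapgef2 (chr3:79118390-79121923), an activator of the GTPase Rap, in WT had 245, 235 and 238 tags at 1 h and still 158, 159 and 162 at 18 h, whereas H3K27ac was listed in no WT library of 18 h by the choice of the regions. Within 500 bp of the start of Rapgef2 Pol II was lower at 1 h, at -0.73 on the log2 scale. Near Edem3, within an intron of Fam129a (chr1:151675558-151679343), a gene of protein quality control in the endoplasmic reticulum, WT had 181, 176 and 177 tags at 1 h and KO had 184, 185 and 179, with 0 listed at 0 h and 18 h in either genotype. The genotypes overlapped at 1 h. At Atp2b1, given above, Pol II was listed only at 1 h. These regions entered the test through the libraries of 1 h alone, so their calls are no support for a rise.

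**Figure D4:**
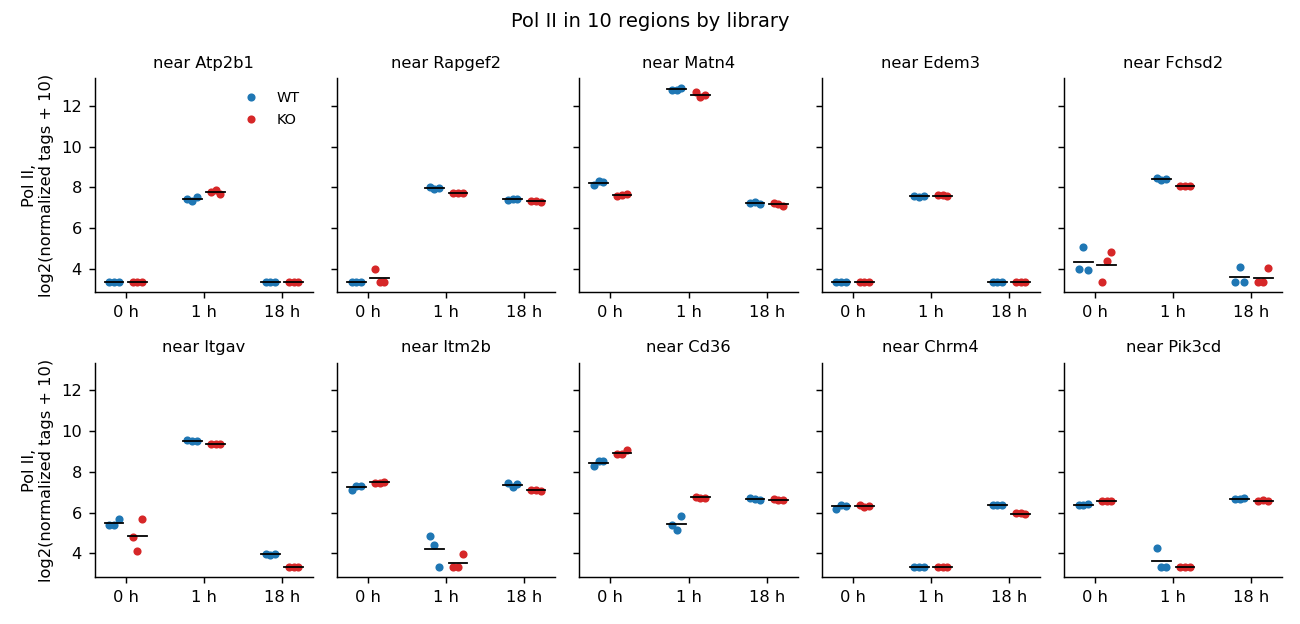
Pol II in 10 regions, as log2(normalized tags + 10), by time with LPS; each point is a library and the line is the mean of 3 libraries. The 6 regions with the largest increase are shown before the 4 with the largest decrease among those called in both genotypes; near Matn4 WT libraries reach 6904 to 7457 tags at 1 h, and near Chrm4 no library of 1 h lists Pol II.

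Pol II fell at 1 h in some of the regions, which the rule chose for H3K27ac at 1 h in WT. In an intron of Itm2b (chr14:73368534-73369703), which encodes a membrane protein that is cut by furin, Pol II in WT went from 128, 151 and 149 tags at 0 h to 18.9, 11.5 and 0 at 1 h, and was back at 169, 143 and 160 by 18 h. H3K27ac there was 11.1, 8.20 and 14.1 tags in WT at 1 h, not far above the thresholds of 6.71 to 8.14 tags for a window. In an intron of Cd36 (chr5:17789284-17791401), a scavenger receptor for lipids, Pol II was 302, 357 and 357 tags at 0 h and 31.3, 25 and 47.9 at 1 h in WT, and 463, 457 and 538 and then 100, 97.0 and 97.2 in KO. The groups of 0 h and 1 h did not overlap in either region. On the log2 scale Pol II fell by 3.05 ± 0.27 at Itm2b and by 2.99 ± 0.13 at Cd36 in WT (limma, adjusted p = 6.66e-08 and 1.95e-11). At Cd36, Pol II at 1 h was also higher in KO than in WT, by 1.30 on the log2 scale (adjusted p = 5.24e-06).

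The region over Mdk (chr2:91929030-91930406), a growth factor, has the start of Chrm4 nearest to it. Pol II there was 63.6, 72.7 and 71.5 tags at 0 h in WT and 71.9, 68.0 and 69.2 in KO, was listed at 0 in all 6 libraries of 1 h, and was 72.2, 72.2 and 73.8 in WT at 18 h. In an intron of Pik3cd (chr4:149682790-149684848), the catalytic subunit delta of PI3-kinase, Pol II in WT went from 72.4, 73.5 and 77.1 tags at 0 h to 9.13, 0 and 0 at 1 h, and was 91.3, 91.8 and 94.6 by 18 h. H3K27ac at 1 h in WT was 11.1, 11.8 and 15.3 tags near Chrm4 and 16.3, 40.6 and 23.0 at Pik3cd, and in KO it was 16.2, 0 and 0 near Chrm4 and 16.4, 0 and 5.05 at Pik3cd. H3K27ac at Itm2b and near Chrm4 was below the median of the members and not far above the thresholds for a window. At Cd36 it was close to the median and at Pik3cd above it. Pol II over the whole genes Itm2b, Cd36, Chrm4 and Pik3cd was also called lower at 1 h in WT, where it fell by 2.91 at Itm2b, by 3.47 at Cd36 and by 2.21 at Pik3cd on the log2 scale and was listed at 0 at Chrm4. Within 500 bp of the start of Pik3cd the difference was 0.064.

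For the nearest genes, Pol II was summed from 500 bp before the start to 500 bp past the end. Of the 1188 genes, 979 were tested in WT at 1 h against 0 h by limma. Pol II was higher at 326 and lower at 221, beside 10.3% and 43.3%, together 53.7%, of the 13229 genes tested. Scaling matters for this split, since the median over all genes tested was -0.82 on the log2 scale as deposited and -0.03 after centring each library. With centring 485 of the nearest genes were higher and 99 lower, and by quantile normalization 404 and 116. The nearest genes had a median log2 difference of 0.16. From 1 h to 18 h, 326 of 961 were lower and 200 higher, beside 9.37% and 42.8% of all genes, with 499 and 92 after centring and 425 and 112 by quantile normalization.

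Genes whose closest region lay under 10 kb away were higher in 96 and lower in 42 of 248 cases, those at 10 to 100 kb in 193 and 144 of 597, and those over 100 kb in 37 and 35 of 134. The nearest genes of regions that lasted to 18 h were higher in 180 and lower in 115 of 527 cases, and those of regions found only at 18 h in 143 and 379 of 911. A gene can be nearest to regions of more than 1 kind.

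Of the genes with at least 5 regions, Pol II was called higher at 1 h in WT over 10, not called over 4 and not tested over Fgf1, which had no Pol II listed, beside 10.3% higher and 43.3% lower of all genes tested. It rose over Akap2, an anchor of protein kinase A, by 5.56 on the log2 scale, and over Ext1, an enzyme of heparan sulphate synthesis, by 5.15, although within 500 bp of its start the difference at Ext1 was -0.79. Csf2, the gene of the growth factor GM-CSF, had no Pol II listed at 0 h and 299.9, 291 and 316 tags at 1 h in WT.

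Adgrl2 and St3gal1, a sialyltransferase, rose by 4.17 and 3.48 on the log2 scale, and Prdm1, the repressor Blimp-1, by 2.83. Etv6 rose by 2.40, Inhba by 1.73, Zeb1 by 1.47 and Zeb2 by 1.02. The call at Zeb2 was lost with quantile normalization, without replicate 1 and with Pol II counted only within 500 bp of the start. Cited2, 4930558K02Rik, Pou1f1 and BC067074 were not called as deposited, at 0.77, 0.28, 0.70 and -0.25. Centring took the median over all genes tested from -0.82 to -0.03, so genes not called as deposited may be called higher after it. The 8 regions of Inhba together had 251, 236 and 259 tags of H3K27ac at 1 h in WT and 249, 75.6 and 105 in KO, and the 8 of Zeb1 had 374, 377 and 396 in WT and 326, 107 and 142 in KO. KO replicate 1 was within the WT range at Inhba and lay below it at Zeb1. The 6 regions of Prdm1 had 338, 381 and 343 tags in WT and 256, 158 and 276 in KO, without replicate 1 standing apart.

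Lists of genes of the LPS response, chosen with earlier results of these data known, were examined next, so their counts are no independent evidence. Over all genes tested, 10.3% were higher and 43.3% lower at 1 h in WT. Of 24 early LPS genes, Pol II over the gene was higher at 15 and lower at 3 at 1 h in WT, and 5 of the 24 had regions found only at 1 h: Il10, Il12b, Il1b, Il6 and Nr4a3. Of 13 NF-kB genes, Pol II was higher at 10, and Bcl6, Nfkb1 and Tnfaip3 had 7 regions between them. Of 23 feedback genes, 10 were higher and 5 lower, and Dusp16, Dusp4, Sgk1, Socs3, Spry2 and Zfp36l1 had 1 region each. Of 21 receptor and signalling genes, 14 were higher and 1 lower, and Cd83, Traf1 and Traf6 had 1 region each. Of 14 genes of interferon and the response to it, 13 were higher, and Ifnb1 had a region. Of 11 AP-1 genes, 4 were higher and 4 lower, and none had a region nearest to it. Of 10 genes of actin and its regulator SRF, 2 were higher and 2 lower, and Tpm1 had a region. As 5.43% of all protein-coding genes were nearest to a region, counts of 0 or 1 in lists of this size are close to that background.

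Inflammatory cytokines formed the first group. Il1b, the gene of interleukin-1 beta, had regions 63801 bp and 22643 bp from its start. The first (chr2:129433798-129436083) had 38.9, 34.9 and 26.8 tags of H3K27ac at 1 h in WT and 36.2, 0 and 0 in KO, and the second (chr2:129392204-129395361) had 25.2, 10.7 and 28.3 in WT and 0 in every KO library. Neither had Pol II in any library, whereas Pol II over Il1b itself went from 103 to 112 tags at 0 h to 7297 to 7675 at 1 h in WT, a rise of 5.99 ± 0.13 (SE) on the log2 scale (limma, adjusted p = 1.42e-17).

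Of the regions nearest to Il6, a cytokine of the acute phase, the closer one (chr5:29992973-29994782) had 21.1, 20.3 and 33.5 tags of H3K27ac at 1 h in WT. In KO it had 14.3, 10.4 and 0 tags at 1 h and 23.9, 12.1 and 5.24 at 18 h, so that it was not confined to 1 h there. Pol II over Il6 was listed at 0 at 0 h and was 376 to 397 tags at 1 h in WT. Of the regions nearest to Il10, the farther one (chr1:131001142-131003445), a cytokine that restrains inflammation, had 32.2, 22.8 and 29.2 tags in WT and 14.1, 0 and 5.05 in KO. Every KO value of 1 h lay below every WT value in both regions. Pol II over Il10 was 84.7 to 102 tags at 0 h and 226 to 284 at 1 h in WT, a rise of 1.36 ± 0.13 on the log2 scale. The nearer region of Il10 (chr1:131033023-131034873) had 19.3, 12.1 and 18.4 tags of H3K27ac in WT and 11.3, 21.6 and 28.6 in KO at 1 h, so that the genotypes overlapped. Pol II in it was listed at 1 h only, with 502, 0 and 483 tags in WT and 229.5, 354 and 291 in KO. The region near Ifnb1 (chr4:88529679-88531771), the gene of interferon beta, had 34.4, 17.1 and 12.7 tags in WT and 15.4, 0 and 11.2 in KO, and Pol II over Ifnb1 was listed in WT only at 1 h, with 161, 259 and 256 tags.

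Nfkb1, the gene of the NF-kB subunit p50 and its precursor, had regions 22421 bp and 38490 bp from its start, at chr3:135712056-135715881 and chr3:135728657-135731417. The first had 68.9, 73.4 and 70.4 tags of H3K27ac at 1 h in WT and 51.0, 25 and 29.9 in KO, and the second had 63.3, 60.2 and 38.3 in WT and 51.2, 7.21 and 26.2 in KO. In the first every KO library lay below WT, and in the second the genotypes overlapped. Neither was listed in a KO library of 0 h. Pol II over Nfkb1 was 1168 to 1542 tags at 0 h and 13575 to 13912 at 1 h in WT. Bcl6, a repressor that counters NF-kB targets, had a region (chr16:24026717-24028671) with 57.8, 57.8 and 45.7 tags in WT and 47.8, 0 and 0 in KO, and Pol II over Bcl6 was not called, with 1414 to 1671 tags at 0 h and 1602 to 1693 at 1 h.

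Among feedback genes, the region 200 kb from Dusp4 (chr8:34604637-34609141), a phosphatase that inactivates MAP kinases, had 142, 142 and 131 tags of H3K27ac in WT and 117, 31.2 and 40.8 in KO at 1 h. Pol II in it was 24.6, 12.2 and 17.0 tags in WT and 19.5, 27.4 and 27.2 in KO at 1 h and was listed at 0 otherwise. Over Dusp4 itself Pol II was 714 to 1138 tags at 0 h and 672 to 744 at 1 h, and was not called. At Sgk1 (chr10:21920409-21923277), a kinase induced by serum and glucocorticoids, the region was in an intron and WT had 40.7, 51.7 and 30.7 tags of H3K27ac and KO had 35.3, 12.7 and 34. The region near Zfp36l1 (chr12:80160576-80162386), which encodes a protein that destabilizes mRNA, had 29.2, 28.9 and 20.6 tags in WT and 28.6, 13.8 and 20.2 in KO. Pol II in that region was 45.3 to 57.2 tags at 0 h, 104 to 106 at 1 h and 0 at 18 h in WT, while over Zfp36l1 it fell by 1.23 ± 0.075 on the log2 scale at 1 h. The fall over Zfp36l1 was under a log2 difference of 1 when libraries were centred. The region near Spry2 (chr14:105742982-105745095), an inhibitor of receptor tyrosine kinase signalling, had 14.8, 21.7 and 34.2 tags in WT and 29.7, 0 and 0 in KO.

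Among receptor and signalling genes, the region 9558 bp from Traf1 (chr2:34970026-34972635), an adaptor of TNF receptors, had 47.4, 23.5 and 27.1 tags of H3K27ac in WT and 12.0, 16.7 and 24.7 in KO. Pol II in it was 120, 123.2 and 134 tags in WT and 123.3, 134 and 110 in KO at 1 h, and was listed at 0 at the other times in either genotype. Pol II over Traf1 itself was 50.7 to 69.5 tags at 0 h, 3077 to 3139 at 1 h and still 1421 to 1468 at 18 h in WT. The region 116 kb from Cd83 (chr13:43899680-43902519), a surface marker of activated antigen-presenting cells, had 46.3, 33.9 and 49.1 tags in WT and 63.8, 22.5 and 17.6 in KO at 1 h, and 46.7, 28.0 and 17.7 in KO at 18 h. It was thus found only at 1 h in WT but at both times in KO. The region at the start of Tpm1 (chr9:67047669-67049897), which encodes tropomyosin, had 21.8, 25 and 37.4 tags in WT and 33.4, 0 and 18.7 in KO, and no Pol II.

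Other genes of the lists had regions further down by level. Pol II over Il12b, a subunit of interleukin-12, was at most 0.516 tags in the WT libraries of 0 h and 4096 to 4314 tags at 1 h, and was 2106 to 2599 in KO. Pol II over Socs3, an inhibitor of cytokine signalling, rose by 6.51 ± 0.13 on the log2 scale in WT, over Tnfaip3, the deubiquitinase A20, by 3.27 ± 0.065, and over Dusp16 by 2.98 ± 0.12. The increase at Dusp16 was 0.13 and not called when Pol II was counted within 500 bp of its start. Over Traf6 and Nr4a3 Pol II was not called as deposited, and was called higher after centring and by quantile normalization, at log2 differences of 1.59 and 1.45 for Traf6 and 1.29 and 1.73 for Nr4a3. Within 500 bp of its start, Pol II at Nr4a3 was lower, at -1.07.

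Whether Pol II in the regions differed between genotypes at 1 h was tested at 601 of the 1541. Limma called 56 higher and 9 lower in KO, beside 4.42% and 1.13% of all regions tested. The median log2 difference was 0.22, close to the 0.21 over all regions tested, and after centring the split was 29 higher and 20 lower, and by quantile normalization 37 and 19. With 50 tags added, 1 was higher and 2 lower. The change from 0 h to 1 h was larger in KO at 45 and smaller at 8 of 644 regions tested for this interaction, beside 2.64% and 0.888%, together 3.52%, of all regions, a test that was added after the data were seen. Near Dock10, Pol II at 1 h was 16.2, 0 and 13.7 tags in WT and 24.5, 32.8 and 28.9 in KO (limma, adjusted p = 0.00416). The log2 difference was 1.07 ± 0.25 (SE), close to the threshold of 1, and a WT library was listed at 0. Centring took the median over the regions from 0.22 to -0.02, so a call this close to the threshold may depend on scaling. The groups did not overlap near Dock10. H3K27ac there was lower in KO, which follows in part from the choice of the regions by WT values.

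Motifs were searched on both strands in the central 300 bases of each merged region. An AP-1 match (TGANTCA) was found in 209 of the 1541 regions (13.6%), close to the 13.4% of all merged regions, 14.5% of those that lasted to 18 h and 14.7% of those found only at 18 h. An NF-kB match (GGGA and TTTCC with any base between) was found in 33 (2.14%), against 0.459% of all merged regions, 2.09% of the lasting regions and 0.781% of those found only at 18 h. Away from gene starts the NF-kB shares were 2.19% for the regions and 0.471% for all merged regions, and the AP-1 shares were 14.0% and 15.0%. The match of interferon regulatory factors (ISRE, GAAA repeated after any 2 bases) was found in 10.6%, against 15.3% of lasting regions, 17.3% of those found only at 18 h and 6.54% of all. Matches of PU.1 (GAGGAAGT), a factor of the macrophage lineage, were in 3.31%, against 4.85% of all, and matches of C/EBP (TTGCNNAAT) in 2.86%, against 3.36%. The sequence bound by Nur77 as a monomer (NBRE, AAAGGTCA) was in 2.08%, against 1.63%, the CRE (TGACGTCA) in 0.260%, against 0.418%, and the CArG box of SRF in 1.82%, against 1.54%. The shares are descriptions of these windows without a test, and mean GC content was 44.9% in the regions and 47.0% over all merged regions.

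**Figure D5:**
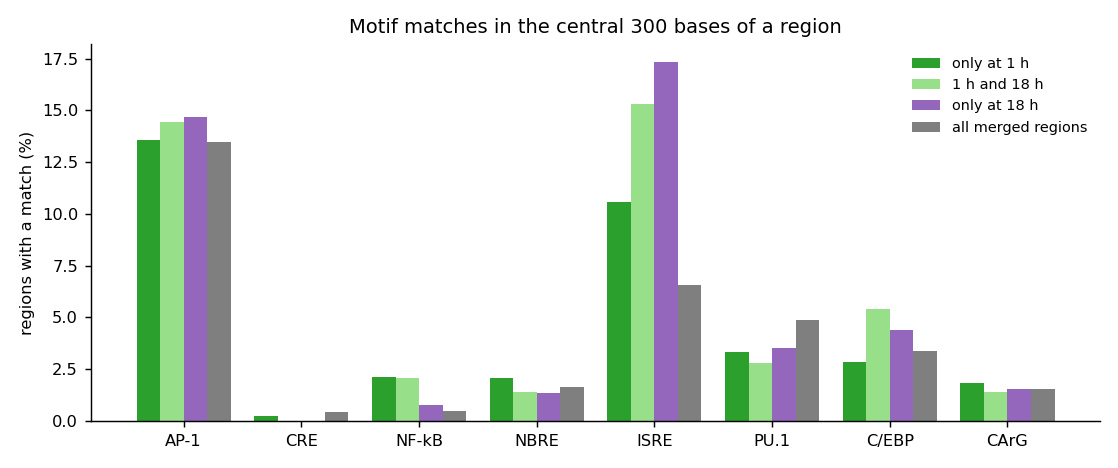
Share (%) of regions whose central 300 bases hold a match on either strand, for regions found only at 1 h, at 1 h and 18 h, only at 18 h, and for all merged WT H3K27ac regions. NF-kB matches were in 2.14% of the regions found only at 1 h and in 0.459% of all, and AP-1 matches in 13.6% and 13.4%.

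Of the 33 regions with an NF-kB match, 10 (30.3%) were listed in all 3 KO libraries of 1 h, against 43.5% of the others, and of the 209 with an AP-1 match 101 (48.3%) were, against 42.4%. The 5 regions whose NF-kB sequences are printed above varied in KO. H3K27ac at Nsd2 was 77.7, 84.1 and 66.1 tags in WT and 55, 30.8 and 51.0 in KO at 1 h, and near Kcnj11 it was 43.3, 56.7 and 43.3 in WT and 63.3, 50.9 and 50.9 in KO. Near Tab2 it was 45.2, 49.6 and 47.7 in WT, and 23.1 in KO replicate 1 with 0 listed in the others. Near Ifi207, WT had 59.6, 46.0 and 40.5 tags and KO had 26.5, 0 and 6.42, and at Mfsd6l, WT had 41.1, 44.9 and 44.8 and KO had 21.2, 0 and 6.84. KO overlapped WT only near Kcnj11. Of these 5, Pol II was called higher at 1 h in WT at Mfsd6l only, by 1.09 ± 0.21 on the log2 scale (limma, adjusted p = 0.000220), from 6.85, 11.8 and 19.8 tags to 33.6, 46.8 and 32.4.

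Input libraries, sequenced without an antibody, also listed regions at some members. The WT inputs of 0 h, 1 h and 18 h listed 17.5%, 47.8% and 33.6% of the 1541 regions, and 41.2%, 53.1% and 58.9% of all merged regions. The KO inputs listed 29.0%, 50.7% and 5.71%, and 52.1%, 55.7% and 13.5% of all. The mean over the 1541 regions was 1.48, 6.36 and 3.65 tags in the WT inputs and 2.53, 5.51 and 0.294 in the KO inputs, so input was highest at 1 h in both genotypes, below the 30.7 to 33.5 tags of H3K27ac in WT. With 1 input for each group, this had no replicate. Of the 470 regions without any input region, 257 were tested for H3K27ac in KO. At 1 h 136 were higher and 0 lower, beside 8.93% and 14.0% of all regions tested. For Pol II in WT 123 were tested, where 59 were higher and 13 lower, beside 13.6% and 31.7% of all regions tested.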

How the data were processed

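H3K27ac, Pol II and input ChIP-seq of mouse macrophages were deposited as lists of enriched regions, one per library, whose signal is the normalized tag count per 10 M tags. Reads were trimmed (Skewer), aligned to mm10 (HISAT2 2.1.0) and freed of duplicates by the authors, who with HOMER joined windows of 500 bp past a Poisson p of 0.001 that lay under 1000 bp apart, for each library alone and without the input as control. Tags that miss this threshold are not listed, so a value of 0 is a floor and small regions depend on depth (13.5 M to 55.4 M tags).

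Groups were taken from the titles. The H3K27ac regions of the 9 WT libraries were merged on an overlap of 1 bp, and every library's tags were shared over merged regions by overlap. Genes are the 21884 protein-coding genes of the GRCm38 annotation given for this work, without 54 that share a symbol. The members and the gene lists were chosen with earlier results of these data known.

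Tests were made with limma 3.58.1 in R 4.3.3 on log2(normalized tags + 10), with a mean for each group, an intensity trend and Benjamini-Hochberg adjustment over all features tested. H3K27ac was fitted in the 9 KO libraries and Pol II in all 18 libraries. H3K27ac of KO was not tested against WT, since WT values chose the members. Features had to be listed in 2 or more of the 3 libraries of either group to be tested, and were called at adjusted p under 0.05 with a log2 change over 1. The fit was tested on simulated data. Fold changes on this scale understate low values, and none is given for a region or gene against a group listed at 0, although medians include such features.

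Named regions are the 8 highest at 1 h in WT, the 8 with the largest called increase in KO whose values of 1 h all exceed those of 0 h, the 6 with the largest increase and 4 with the largest decrease of Pol II called alike in both genotypes, up to 15 near a listed gene, and the 2 lowest members and 2 highest that missed the rule by 1 library. Other genes are those with at least 5 members and the listed genes. Nsd2, Ifi207, Kcnj11, Tab2 and Mfsd6l, the nearer region of Il10, and the members with an interaction, were chosen after their values were seen. H3K27ac near some marker genes of other cell types is not reported here. Same-numbered replicates did not deviate together, so they were not paired. Alternatives tried were other pseudocounts, filters, scalings, overlaps, a replicate block, leaving out libraries and leaving out regions with input. Python 3.11.15 with pandas 2.3.3, numpy 2.4.6 and matplotlib 3.10.9 was used for the rest.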

Additional observations from a re-analysis of the deposited data

Results flagged for a closer look

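The change in Pol II from 0 h to 1 h differed between genotypes at 53 of 644 tested regions found only at 1 h, by the interaction term of limma, a test chosen after seeing the data. It was larger in KO at 45 and smaller at 8, beside 976 and 329 of the 37036 regions tested in all, and at an unadjusted p under 0.05 the counts were 174 and 53. The regions below had the largest fitted differences in each direction. Pol II was listed at 0 in nearly all of their libraries of 0 h, so no fold is given. Such regions entered the test through the libraries of 1 h in which they were listed and were chosen after the values were seen, so their adjusted p describes listed values against the floor and is no support for a difference.

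The change was larger in KO near Shq1, a gene of ribonucleoprotein assembly (limma, adjusted p = 0.00205). Pol II there was 11.3, 11.8 and 0 tags in WT and 98.3, 82.5 and 37.6 in KO at 1 h, with 0 listed at 0 h, whereas H3K27ac was 77.7, 67.7 and 59.2 in WT and 64.2, 0 and 0 in KO. Near Mtus1 (adjusted p = 9.92e-05), Pol II at 1 h was 6.38, 0 and 0 tags in WT and 42.0, 43.6 and 38.1 in KO, and H3K27ac was 24.1, 34.2 and 26.6 in WT and 82.6, 74.8 and 81.3 in KO. In KO the region near Mtus1 was not confined to 1 h, with 19.4, 18.6 and 21.4 tags of H3K27ac at 0 h and 81.7, 46.8 and 18.5 at 18 h. At the start of Celf3, an RNA-binding protein (adjusted p = 4.94e-05), Pol II at 1 h was listed at 0 in WT and was 21.3, 21.5 and 30.4 tags in KO. The genotypes did not overlap in Pol II in any of these regions.

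The change was smaller in KO near Edem3 (limma, adjusted p = 0.00238), in a region other than the one described above, where Pol II at 1 h was 72.6, 46.5 and 53.0 tags in WT and 9.65, 0 and 17.1 in KO. In an intron of Col18a1 (adjusted p = 4.41e-08), Pol II at 1 h was 22, 24.2 and 23.6 tags in WT against 0 listed in KO, while H3K27ac was 34.1, 33.5 and 49.6 in WT and 16.4, 45.2 and 47.2 in KO. At Myo18b (adjusted p = 2.69e-06), Pol II at 1 h was 24.6, 20.5 and 15.7 tags in WT against 0 listed in KO, and H3K27ac was 170, 188 and 157 in WT and 80.4, 35.6 and 43.4 in KO.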

How the results depend on the processing

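The number of members was 2711 with 2 of 3 libraries at 1 h, 470 without regions that overlap an input region, and 2137 to 2339 with 1 replicate left out. With a pseudocount of 50 the calls fell to 77 and 58 for H3K27ac in KO (1 h against 0 h, 18 h against 1 h), 100 and 111 for Pol II in WT, 101 for Pol II in KO and 3 for KO against WT (1 higher, 2 lower). When the fit itself left out regions that overlap an input region they were 135, 112, 72, 72, 91 and 18. For KO against WT a pseudocount of 1 gave 141 and whole values of overlapping regions gave 125. Within 500 bp of the gene start, 186 and 185 nearest genes were called, and Pol II turned at Ext1 (-0.79), Rapgef2 (-0.73), Fchsd2 (-1.34) and Pik3cd (0.064). The cause of these changes was not tested, apart from there being fewer regions without input.

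Leaving out each replicate gave 387 to 511 and 366 to 514 calls for H3K27ac in KO, 275 to 282 and 289 to 301 for Pol II in WT, 346 to 363 in KO, 60 to 75 for KO against WT, and 547 to 555 and 527 to 541 genes. With a replicate block the counts were 536, 474, 282, 293, 353, 62, 547 and 526. Replicate numbers do not pair the libraries, as correlations of same-numbered deviations were -0.36 to 0.0078 for H3K27ac and -0.067 to 0.078 for Pol II. For H3K27ac those of other-numbered deviations in KO were -0.304 to 0.337. KO replicate 1 of 1 h correlated with KO replicates 2 and 3 of 18 h at 0.318 and 0.335. KO replicate 1 of 18 h correlated with KO replicates 2 and 3 of 1 h at 0.337 and 0.321. The source of this shared deviation was not tested. In fits chosen after seeing the data, calls from 1 h to 18 h in KO were 437, 629 and 488 without replicate 1, 2 or 3 of 1 h and 534 without replicate 1 of 18 h. Of the named regions, the call in KO at Lad1 was lost with the block (adjusted p = 0.055), without the filter (0.053) and without replicate 2 (0.078) or 3 (0.13), where the main adjusted p was 0.0222. That at Brip1 was lost without replicate 2 (0.073) or 3 (0.079), and that at Cd83 without replicate 2 (0.066). Depth limits regions near the floor, where presence in a library is not a level.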
